A study of Mus musculus with 10 samples.

Results

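The leukocyte and matrix-binding integrins examined here are 10 subunits: the alpha chains Itgal, Itgam, Itgax, Itga4, Itga5 and Itgav and the beta chains Itgb2, Itgb3, Itgb5 and Itgb7. They were found as every probe set (a group of short probes for 1 transcript) whose platform annotation gives exactly 1 symbol, that symbol being one of these 10. This gave 26 of 45101 probe sets: 5 each for Itga4 and Itgav, 4 each for Itga5 and Itgb5, 2 each for Itgal and Itgb3, and 1 each for Itgam, Itgax, Itgb2 and Itgb7. All 10 genes were on the array, among 18193 named genes.

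RNA was taken from epididymal white adipose tissue, the fat pad beside the epididymis, of male C57BL/6J mice. Feeding began at 8 weeks of age and lasted 8 weeks, on a high-fat diet with 60% fat in 5 mice and on normal chow (CRF-1) in the other 5. Each mouse gave 1 Affymetrix array, so the spread given is that between mice. Values are log2 of the deposited intensity after quantile normalization of the arrays, and changes are the high-fat diet minus chow on this scale with the standard error (SE) from limma. Chow arrays 1 and 2 stood apart: the mean log2 level of 6 adipocyte markers was 11.90 to 12.28 in high-fat arrays and 11.44 to 12.24 in chow arrays 3 to 5, but 10.72 and 9.92 in chow arrays 1 and 2. All chow arrays held higher levels of epithelial and of epididymis and testis markers than any high-fat array.

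Integrins are receptors made of 1 alpha and 1 beta chain that span the cell membrane and bind other cells or the matrix. The beta2 chain Itgb2 is made by leukocytes, where it pairs with Itgal (together LFA-1), Itgam (Mac-1) or Itgax (p150,95). Alpha4 pairs with beta1 or beta7 and binds VCAM-1 or MAdCAM-1 on vessels, while the alphav and alpha5 dimers bind matrix proteins such as vitronectin and fibronectin and occur on many cell types. CD11c, the product of Itgax, is a marker of the macrophages known to gather in obese mouse fat.

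Of the 10 genes, each read by its brightest probe set, 9 rose on the high-fat diet at a limma adjusted p under 0.05 and none fell (also 0 lower at an unadjusted p under 0.05). Over all genes 12.9% were called higher and 13.1% lower. Brightness was the mean over the arrays of both diets, so high-fat levels helped to choose the probe set, which can favour rises. On chow alone another probe set was brighter for Itga5 (4.41 against 4.12) and for Itgb5 (9.26 against 9.13). These differed by 0.26 and 0.98, and neither passed over all probe sets. The rises ran from 0.49 for Itgav to 4.79 for Itgb2, and the gene that did not pass was Itgb3. The median change of the 10 was 1.80, against -0.037 for all genes. The groups did not overlap for 8 of the 10, all higher, where 11.5% of all genes were higher without overlap. With chow arrays 1 and 2 left out 9 again rose and none fell, against 18.5% and 19.8% of all genes. Macrophage markers moved with these rises: the summed log2 level of 8 of them was 81.7 to 87.0 on the high-fat diet and 56.7 to 64.9 on chow, and its part in the integrin results was not tested. In whole tissue, more cells of a type and more RNA per cell cannot be told apart.

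**Figure D1:**
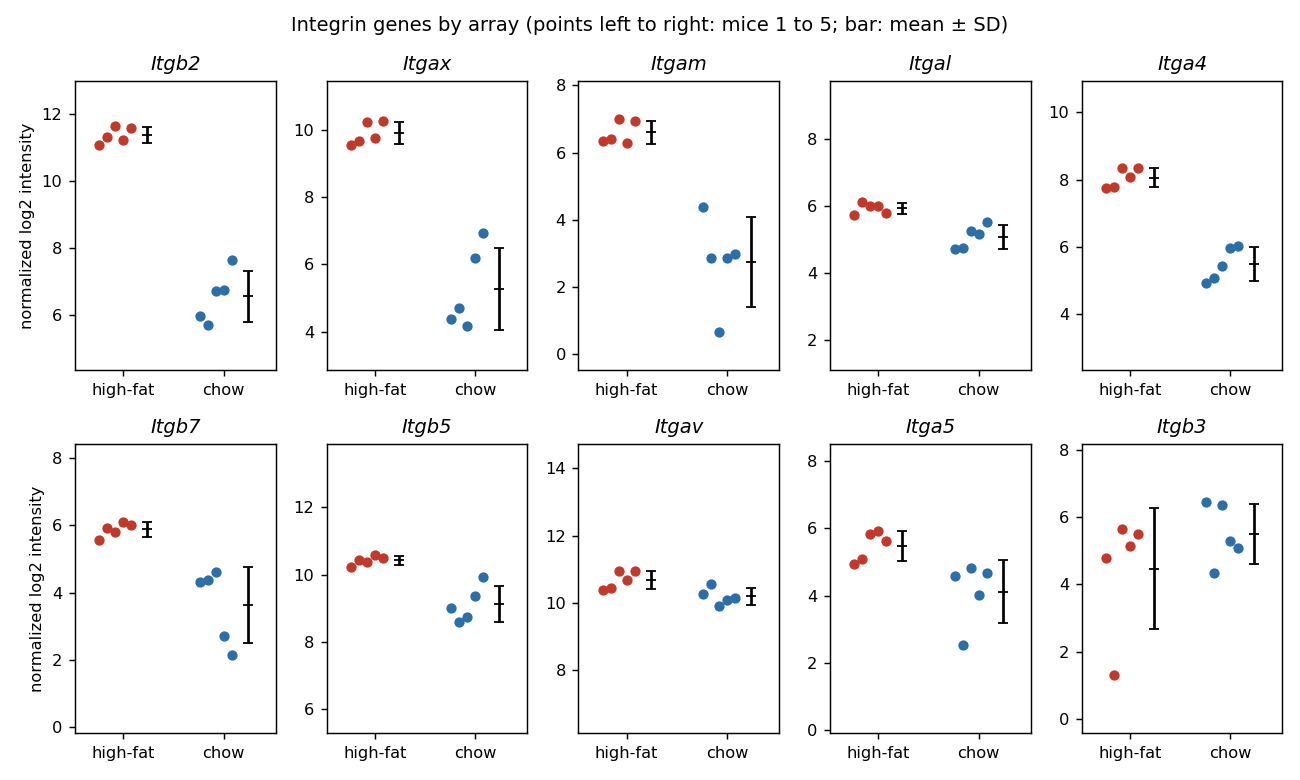
Normalized log2 intensity of the 10 integrin genes (vertical axes, each spanning the same range of log2 units) in the 5 high-fat and the 5 chow arrays, by the brightest probe set of each gene; points are mice and bars the mean ± SD (n = 5 each). The high-fat points of Itgb2, Itgax, Itgam, Itgal, Itga4, Itgb7, Itgb5 and Itga5 lie above all chow points, those of Itgav and Itgb3 overlap with chow, and high-fat mouse 2 is low in Itgb3 at 1.31.

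The chains of the beta2 family differed in how much they rose. Itgb2, the shared beta2 chain, had deposited intensities of 2449, 2798, 4100, 2288 and 3402 in high-fat mice 1 to 5, against 62.23, 53.65, 100.1, 120.1 and 156.9 in chow mice 1 to 5. Its normalized log2 level was 11.36 ± 0.23 on the high-fat diet and 6.57 ± 0.76 on chow (SD, n = 5 each). Every high-fat array was far above every chow array. The change was 4.79 (SE 0.31, adjusted p = 4.65e-06), a 27.6-fold difference, and 0.214% of all genes had a larger rise. It was 4.34 without chow arrays 1 and 2.

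Itgax, the alphaX chain (CD11c) of macrophages and dendritic cells, had log2 levels of 9.56, 9.67, 10.24, 9.76 and 10.25 on the high-fat diet, against 4.38, 4.71, 4.16, 6.18 and 6.92 on chow. The groups were well apart, and chow mice 4 and 5 were the highest of their group. The change was 4.63 (SE 0.49, adjusted p = 8.98e-05), a 24.7-fold difference.

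Itgam, the alphaM chain (CD11b) of macrophages, monocytes and neutrophils, had levels of 6.35, 6.42, 7.00, 6.30 and 6.95 on the high-fat diet, against 4.38, 2.87, 0.66, 2.88 and 2.99 on chow. The chow arrays were dim and spread widely, with chow mouse 3 the lowest. Itgam rose by 3.85 (SE 0.56, adjusted p = 0.000656), and by 2.23 on the log2(value + 16) scale, which damps changes of dim probe sets.

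Itgal, the alphaL chain (CD11a) found on most leukocytes and prominent on lymphocytes, had levels of 5.74, 6.12, 6.00, 5.99 and 5.79 on the high-fat diet, against 4.70, 4.73, 5.25, 5.15 and 5.53 on chow. The groups did not overlap, but the highest chow and the lowest high-fat array were close. Itgal rose by 0.85 (SE 0.21, adjusted p = 0.0128), a 1.81-fold difference. Its other probe set, dimmer, differed by -0.73 and did not pass (adjusted p = 0.442 over all probe sets). With the mean of both probe sets the difference was 0.064 (adjusted p = 0.920), so the call rests on the brighter one.

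Itgam and Itgax are neighbours on chromosome 7, with Itgad next after Itgax, in the RefSeq annotation of GRCm38.p6. Since these neighbours rose together, their start regions are shown with that of Itgav, a gene of many cell types with a small change. RefSeq start windows were given for 7 of the 10 genes, each from 250 bases before to 50 bases after the annotated start. Capitals mark GAGGAA on either strand (TTCCTC on the other), the core that PU.1, a transcription factor of myeloid cells, is known to bind. The windows are chr7:128062390-128062689 for Itgam, chr7:128129300-128129599 for Itgax and chr2:83724147-83724446 for Itgav, all on the plus strand of GRCm38.p6.
Itgam: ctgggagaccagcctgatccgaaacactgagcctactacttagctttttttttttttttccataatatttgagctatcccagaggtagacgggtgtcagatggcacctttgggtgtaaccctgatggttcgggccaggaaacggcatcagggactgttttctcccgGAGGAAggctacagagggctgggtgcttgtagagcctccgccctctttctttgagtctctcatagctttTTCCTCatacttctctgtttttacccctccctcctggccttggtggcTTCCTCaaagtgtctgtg
Itgax: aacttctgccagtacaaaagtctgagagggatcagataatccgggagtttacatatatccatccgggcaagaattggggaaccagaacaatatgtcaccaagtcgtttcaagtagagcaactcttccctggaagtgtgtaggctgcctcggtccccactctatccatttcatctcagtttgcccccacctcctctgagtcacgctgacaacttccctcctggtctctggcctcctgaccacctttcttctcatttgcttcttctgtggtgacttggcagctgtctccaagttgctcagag
Itgav: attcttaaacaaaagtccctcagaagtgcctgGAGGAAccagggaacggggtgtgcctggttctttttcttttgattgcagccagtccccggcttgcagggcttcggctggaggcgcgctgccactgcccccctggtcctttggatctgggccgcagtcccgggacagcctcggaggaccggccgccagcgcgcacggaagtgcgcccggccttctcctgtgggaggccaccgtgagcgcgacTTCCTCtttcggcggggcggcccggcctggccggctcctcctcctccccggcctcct
The Itgam window held 3 matches, starting 84 and 15 bases before the start and 33 bases into the transcript. That of Itgav held 2 and that of Itgax 0. Among the other windows, Itga5 and Itgb7 held 1 each and Itga4 and Itgb5 none. No matches overlapped each other. Of 32851 windows of this length, 28.3% held at least 1 match and 4.8% at least 2. The matches are letters in these windows and say nothing of whether the factor binds there.

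The alpha4 and beta7 chains, which bring lymphocytes, monocytes and mast cell precursors to tissues, both rose. Itga4, the alpha4 chain (CD49d), had levels of 7.76, 7.78, 8.35, 8.07 and 8.34 on the high-fat diet, against 4.92, 5.09, 5.43, 5.98 and 6.04 on chow. The ranges were apart by more than the spread within either group. Itga4 rose by 2.57 (SE 0.25, adjusted p = 5.50e-05), a 5.92-fold difference. Of its other 4 probe sets, all dimmer, 2 also rose (by 1.93 and 3.16), one differed by 2.17 without passing (adjusted p = 0.0665) and one by 0.093 (adjusted p = 0.957).

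Itgb7, the beta7 chain, had levels of 5.55, 5.92, 5.80, 6.11 and 6.02 on the high-fat diet, against 4.32, 4.38, 4.62, 2.72 and 2.14 on chow. Chow mice 4 and 5 were the lowest here, whereas they were the highest chow mice in Itgax, Itgb2 and Itga4. Itgb7 rose by 2.25 (SE 0.48, adjusted p = 0.00591) and by 1.32 on the log2(value + 16) scale.

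Among the 4 matrix-binding members 3 passed, with a median change of 0.89, against 3.21 for the 6 leukocyte chains, all of which passed. All these calls were rises, where 12.9% of all genes were called higher and 13.1% lower. The calls of Itgav and Itga5 were lost under 11 of 21 and 10 of 20 alternatives. Itgb5, the beta5 chain that with alphav binds vitronectin, had levels of 10.23, 10.43, 10.37, 10.59 and 10.50 on the high-fat diet, against 9.0, 8.60, 8.75, 9.38 and 9.92 on chow. The high-fat arrays were tightly grouped above all chow arrays. Itgb5 rose by 1.29 (SE 0.22, adjusted p = 0.00184), a 2.45-fold difference. Its other 3 probe sets differed by 0.98, 1.19 and 1.56. Over all probe sets the adjusted p of the first of these, 0.0503, missed the threshold and that of the second, 0.0499, barely met it. Both carry the suffix of probe sets that may match other transcripts.

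Itgav, the alphav chain shared by several matrix receptors, had levels of 10.39, 10.44, 10.95, 10.67 and 10.96 on the high-fat diet, against 10.27, 10.56, 9.90, 10.08 and 10.15 on chow. Chow mouse 2 lay within the high-fat range. The change was 0.49 (SE 0.16, adjusted p = 0.0420), a 1.40-fold difference, and 24.0% of all genes had a larger rise. This call was lost without any one of high-fat arrays 3, 4 and 5 or chow arrays 1, 3, 4 and 5, with adjusted p between 0.0559 and 0.103. With arrays centred on their medians the change was 0.98, and the median change of all genes was 0.21. A dimmer Itgav probe set rose by 1.30 (adjusted p = 0.00747 over all probe sets), and the remaining 3 differed by 1.06, -0.51 and -1.31 and did not pass.

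Itga5, the alpha5 chain of the fibronectin receptor, had levels of 4.93, 5.09, 5.82, 5.91 and 5.61 on the high-fat diet, against 4.57, 2.52, 4.81, 4.02 and 4.68 on chow. The groups did not overlap, but high-fat mouse 1 and chow mouse 3 were close. Itga5 rose by 1.35 (SE 0.44, adjusted p = 0.0435). The call was lost without any one of the 5 high-fat arrays or without chow array 4, with adjusted p between 0.0502 and 0.10. Of its other probe sets the dimmest rose by 3.24 (0.69 on the log2(value + 16) scale), and 2 differed by 0.26 and 1.62 without passing. Where probe sets that may match other transcripts were left out, Itga5 was read by one that differed by 0.26 (adjusted p = 0.677).

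Itgb3, the beta3 chain of platelets, osteoclasts and endothelium, had levels of 4.78, 1.31, 5.65, 5.13 and 5.49 on the high-fat diet, against 6.46, 4.35, 6.35, 5.30 and 5.07 on chow. High-fat mouse 2 was far below all other arrays, and the rest overlapped. The difference was -1.03 and did not pass (SE 0.79, adjusted p = 0.377). Without high-fat array 2 it was -0.24 (adjusted p = 0.750). The other Itgb3 probe set was dim and differed by 0.83 (adjusted p = 0.311).

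**Figure D2:**
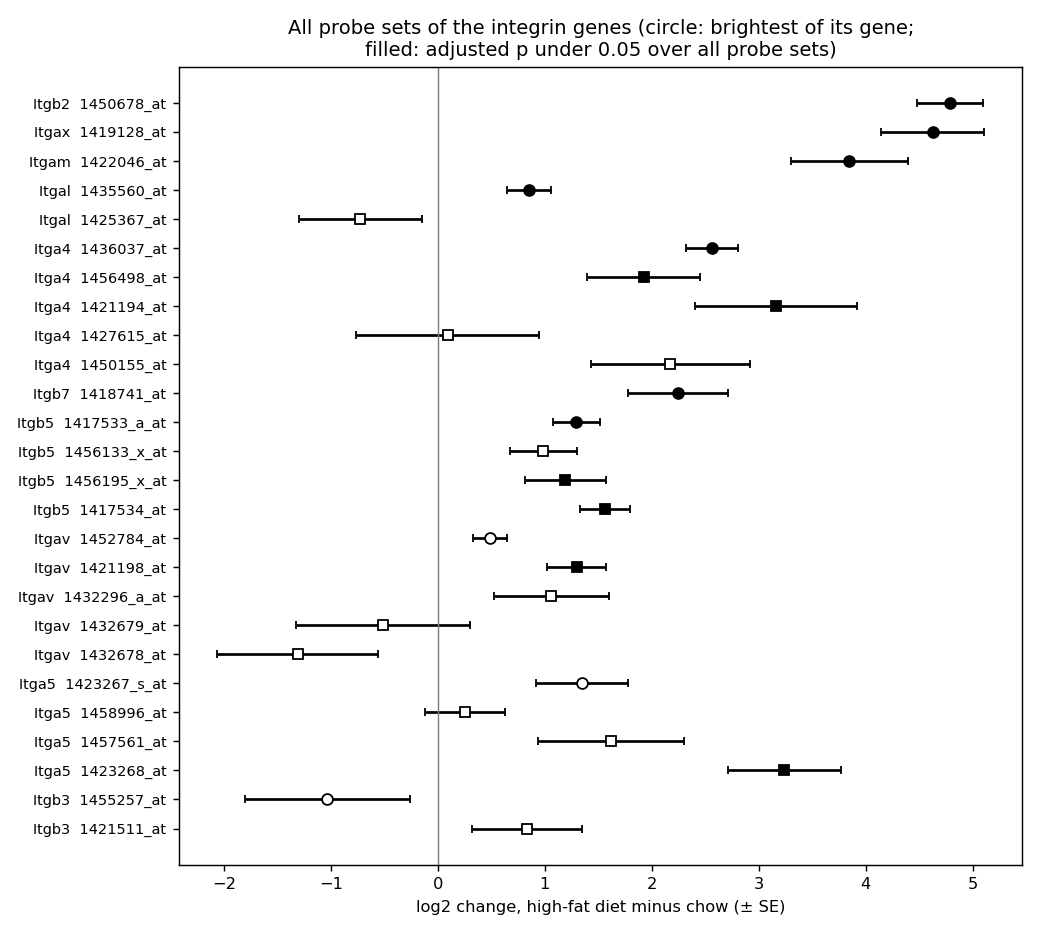
Log2 change on the high-fat diet minus chow with its SE (horizontal axis) for all 26 probe sets of the 10 genes; circles are the brightest probe set of a gene, and filled symbols passed an adjusted p of 0.05 over all probe sets. The single probe sets of Itgb2, Itgax, Itgam and Itgb7 passed, and the open circles are Itgav, Itga5 and Itgb3.

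Tested one by one over all 45037 probe sets, 13 of the 26 rose and none fell (18 rose and 0 fell at an unadjusted p under 0.05). Over all probe sets 9.89% were called higher and 8.00% lower. The positive differences numbered 22. The 4 negative ones belonged to Itgal, Itgav and Itgb3 and did not pass. For 15 of the 26 the groups did not overlap, all higher, against 9.49% of all probe sets. With chow arrays 1 and 2 left out, 16 rose and none fell. The share over all probe sets was not counted for that fit. Over all genes it called 18.5% higher and 19.8% lower, more than the 10-array fit did.

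Members varied more between chow mice than between high-fat mice. The SD was larger on chow for 8 of 10, and the median SD was 0.28 on the high-fat diet and 0.82 on chow, against 0.27 and 0.57 over all genes. Of the chow mice, number 5 held the highest level of 5 of the 10 genes and number 2 the lowest of 4.

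The 2 chains of a dimer were then set against each other, to ask whether they changed by unequal amounts. For 8 known dimers the log2 level of alpha minus that of beta was taken in each array; only its shift between diets can be read, since 2 probe sets have no common scale. The SE of a shift came from the SDs of the 2 groups, not from limma. Two-sided exact permutation tests over 252 arrangements were adjusted over the 8 pairs, and 2 pairs passed. The smallest possible p is 0.00794, so a pair reaching it alone could not pass after adjustment. A pair that did not pass may thus still have shifted.

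Itgal minus Itgb2 was -5.33, -5.19, -5.62, -5.22 and -5.78 on the high-fat diet, against -1.29, -0.99, -1.48, -1.61 and -2.13 on chow. The groups were far apart, a shift of -3.93 (SE 0.22, n = 5 each, exact permutation p = 0.00794, the smallest possible, adjusted p = 0.0317). Itgal thus rose less than its partner. For Itgax minus Itgb2 the high-fat values, -1.64 to -1.32, lay inside the chow range of -2.58 to -0.58. The shift was -0.16 (SE 0.37, exact permutation p = 0.706, n = 5 each), smaller than the spread between chow mice. Itgam minus Itgb2 shifted by -0.94 (SE 0.76, exact permutation p = 0.302, n = 5 each), and by -2.32 on the log2(value + 16) scale, where it passed (adjusted p = 0.0212). That scale damps the rise of the dim Itgam (3.85 to 2.23) more than that of Itgb2 (4.79 to 4.55). The larger shift there depends on the offset and cannot show unequal change of the chains.

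Itga4 rose more than Itgb1, the beta1 chain of most cells, with which it forms VLA-4. Itga4 minus Itgb1 was -1.94, -2.03, -1.07, -1.30 and -1.38 on the high-fat diet, against -4.78, -4.02, -4.06, -3.36 and -3.24 on chow. The ranges did not meet, and the shift was 2.35 (SE 0.33, n = 5 each, exact permutation p = 0.00794, adjusted p = 0.0317). Itgb1 itself differed by 0.22 and did not pass (SE 0.13, adjusted p = 0.272), though it passed for the values as deposited (0.53, adjusted p = 0.0484) and with arrays centred on their medians (0.66, adjusted p = 0.00268). Itga4 minus Itgb7 had 2 clusters on chow, 0.60 to 0.81 in mice 1 to 3 and 3.26 and 3.91 in mice 4 and 5, around high-fat values of 1.85 to 2.55, and shifted by 0.32 (SE 0.72, exact permutation p = 0.659, n = 5 each).

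Among the matrix dimers, Itga5 minus Itgb1 shifted by 1.13 (SE 0.45), Itgav minus Itgb3 by 1.52 (SE 0.87) and Itgav minus Itgb5 by -0.80 (SE 0.31), with exact permutation p of 0.0476, 0.111 and 0.0317 (n = 5 each) and adjusted p of 0.0952, 0.178 and 0.0847. None of the 3 passed. Leaving out 1 array let Itgav minus Itgb3 pass without chow array 2 (1.91, adjusted p = 0.0423) and Itgav minus Itgb5 without chow array 5 (-1.01, adjusted p = 0.0212). Itgav minus Itgb5 also passed with the mean of all probe sets (-1.05, adjusted p = 0.0317) and with suffixed probe sets left out (-1.07, adjusted p = 0.0423). Without chow arrays 1 and 2 the shifts of Itgal minus Itgb2 and Itga4 minus Itgb1 were -3.71 and 2.03; the smallest p of that design is 0.0179, and neither then passed (adjusted p = 0.0714).

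**Figure D3:**
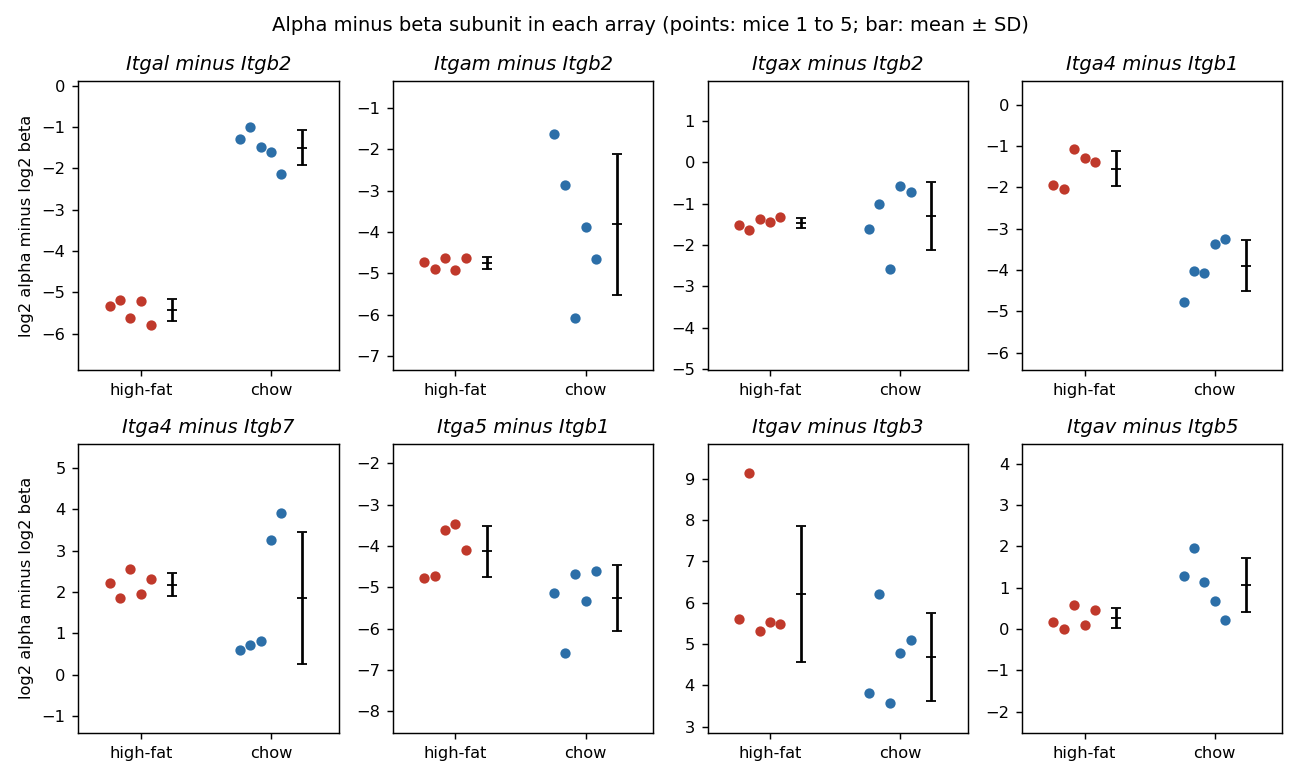
Alpha minus beta chain (log2, vertical axes, each spanning the same range of log2 units) in the 5 high-fat and the 5 chow arrays for 8 dimers; points are mice and bars the mean ± SD (n = 5 each). High-fat and chow points are fully apart for Itgal minus Itgb2 and Itga4 minus Itgb1, and the high-fat points of Itgax minus Itgb2 fall within the chow range.

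Of 16 other integrin subunits 14 were named on the array, and 2 rose and 3 fell, with a median change of -0.49. In either direction 25.9% of all genes passed. Itgb4, the beta4 chain of epithelial hemidesmosomes, fell by 2.95 (SE 0.50, adjusted p = 0.00163). Itga8, an alpha chain of mesenchymal and smooth muscle cells, fell by 2.22 (SE 0.30, adjusted p = 0.000453). Itga3, a laminin receptor chain of epithelia, fell by 1.45 (SE 0.18, adjusted p = 0.000274). Itga7, a laminin receptor chain of muscle, rose by 2.03 (SE 0.46, adjusted p = 0.00801), and Itga9 by 0.77 (SE 0.26, adjusted p = 0.0478). The Itga9 call was lost without chow arrays 1 and 2 (0.51, adjusted p = 0.119), and the count of rises was 1 without any one array other than chow array 5. All 7 epithelial markers fell in the same comparison, with a summed log2 level of 28.7 to 33.4 on the high-fat diet and 48.7 to 72.9 on chow; their part in the falls was not tested.

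Of 12 ligands on cells 2 rose and 1 fell, where 25.9% of all genes passed in either direction, and the median change was 0.15. Icam1 and Vcam1, endothelial ligands of beta2 and alpha4 integrins, differed by 0.18 (SE 0.27, adjusted p = 0.675) and 0.23 (SE 0.25, adjusted p = 0.553), but by -0.22 and -0.15 without chow arrays 1 and 2, neither passing. Madcam1, the ligand of alpha4beta7, differed by -0.52 (SE 0.41, adjusted p = 0.393). F11r, the junctional molecule JAM-A, which LFA-1 can bind, fell by 1.06 (SE 0.13, adjusted p = 0.000212), while Thy1, which can bind Mac-1 and alphavbeta3, rose by 0.85 (SE 0.20, adjusted p = 0.00916). Icam5, a neuronal ligand of LFA-1, rose by 2.47 (SE 0.70, adjusted p = 0.0245) but was dim, with 0.57 on the log2(value + 16) scale. Of these genes 2 rose and 4 fell without chow arrays 1 and 2, against 18.5% and 19.8% of all genes. Only 1 rose without any one of high-fat arrays 3, 4 and 5 and chow arrays 1 and 3.

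Of 14 matrix and soluble ligands measured, 4 rose and 2 fell, with a median change of 0.21. The shares over all genes were 12.9% higher and 13.1% lower. Fn1, fibronectin, rose by 1.82 (SE 0.42, adjusted p = 0.00876). Tnc, tenascin C, rose by 1.5 (SE 0.36, adjusted p = 0.0112; 0.95 without chow arrays 1 and 2) and Tgfb1, whose latent form binds alphav integrins, by 1.51 (SE 0.20, adjusted p = 0.000427). Emilin1, an alpha4beta1 ligand of elastic fibres, rose by 0.91 (adjusted p = 0.0415), and the matricellular protein Ccn2 fell by 1.46 (adjusted p = 0.00333). Fga, a fibrinogen chain, fell by 3.80 (SE 0.75, adjusted p = 0.00394). Without chow arrays 1 and 2 the count was 4 higher and 6 lower, against 18.5% and 19.8% of all genes. Leaving out only high-fat array 5, chow array 1 or chow array 2 gave 4 lower. The values as deposited also gave 4 lower, and array weights 5. With the mean of all probe sets 2 rose.

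Of the genes that switch integrins on or off, 7 of 18 measured rose and none fell at the adjusted threshold, with a median change of 0.61. The same fit called 12.9% of all genes higher and 13.1% lower. Fermt3, kindlin-3, which activates integrins in blood cells, rose by 2.94 (SE 0.27, adjusted p = 3.48e-05). Its relative in other cells, Fermt2, differed by -0.29 (SE 0.28, adjusted p = 0.496), and by -0.64 without chow arrays 1 and 2, where it passed (adjusted p = 0.000536). The leukocyte adaptor Fyb (ADAP) rose by 2.64 (SE 0.23, adjusted p = 3.16e-05), Cytip, a regulator of LFA-1 adhesion, by 2.32 (SE 0.23, adjusted p = 6.51e-05), and Apbb1ip (RIAM), which links Rap1 to talin, by 2.27 (SE 0.43, adjusted p = 0.00333; 1.14 on the log2(value + 16) scale). Skap2, Tln1 (talin 1) and Rap1b rose by 1.01, 0.91 and 0.87. The counts were 8 and 2 without chow arrays 1 and 2, where 18.5% of all genes were higher and 19.8% lower. Without chow array 2 alone 2 genes also fell, and without chow array 5 alone 1. With array weights 8 rose and 2 fell. With arrays centred on their medians 11 rose, where 4420 of all 18193 genes were higher, against 2338 in the main fit.

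Of 15 signalling genes downstream of integrins, 3 rose and 1 fell, with a median change of 0.36. Over all genes 25.9% passed in either direction. The kinase Syk rose by 2.63 (SE 0.49, adjusted p = 0.00273) and the exchange factors Vav3 and Vav1 by 1.64 (SE 0.15, adjusted p = 4.14e-05) and 1.42 (SE 0.20, adjusted p = 0.000470). Pxn, paxillin, had a change of -0.37 (SE 0.10, adjusted p = 0.0221), which was -0.022 for the values as deposited and 0.11 with arrays centred on their medians, so its direction depends on the scaling. The general kinases Src and Ilk differed by 0.033 and 0.18 and did not pass, but did without chow arrays 1 and 2 (0.56, adjusted p = 0.0331, and 0.32, adjusted p = 0.00857). Without chow arrays 1 and 2, 7 rose and 2 fell, and without chow array 1 alone 6 rose. Leaving out both called 18.5% of all genes higher and 19.8% lower. The count of rises was 6 for the values as deposited and 8 with arrays centred on their medians. It was 6 with array weights and 5 with the mean of all probe sets. None fell without high-fat array 1 or chow array 3, for the values as deposited or with arrays centred on their medians.

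**Figure D4:**
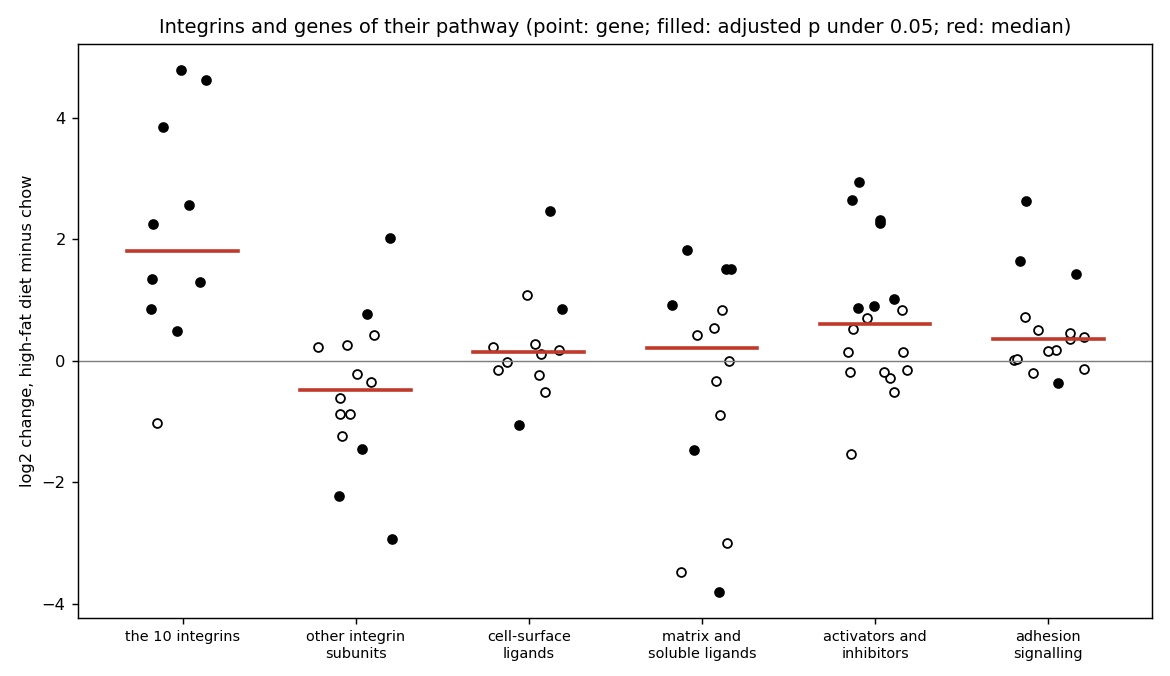
Log2 change on the high-fat diet minus chow (vertical axis) of the 10 integrins and of 5 lists of related genes; each point is a gene, filled where the limma adjusted p was under 0.05, and red lines are medians. The median of the 10 integrins is 1.80 and those of the lists run from -0.49 for other integrin subunits to 0.61 for activators and inhibitors.

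Likeness was read by root mean square difference of the centred log2 profile over the 10 arrays. Only the 9091 non-member genes with a mean level above the median of all genes were compared. Dimmer genes were not searched. The genes most like Itgb2 were Myo1f (0.147), a myosin of leukocytes, and Slc37a2 (0.159). Those most like Itgax were C3ar1 (0.464), the receptor of complement C3a, and again Myo1f (0.472). Itga4 was most like Rassf4 (0.149) and Mrc1 (0.161), the macrophage mannose receptor, and Itgam most like Glipr1 (0.566) and Nceh1 (0.752). The nearest to Itgal were Idua (0.127) and Rcbtb2 (0.141), to Itgb7 Ifi30 (0.509) and Mad2l1 (0.511), and to Itgb5 Atp6v0a1 (0.154) and Casp12 (0.164). Itgav was nearest to Psmd1 (0.103) and Tmed10 (0.115), and Itga5 to Adam23 (0.307) and Flrt2 (0.337). None of the genes compared was close to Itgb3 (Lyve1, 1.04, and Meis2, 1.05).

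Markers of other cells moved with the diets. Of the 8 macrophage markers 7 rose, where 12.9% of all genes were called higher and 13.1% lower. Of 6 dendritic cell markers 4 rose (27.1 to 31.0 on the high-fat diet and 20.4 to 24.7 on chow), of 7 T and NK cell markers 1 (21.6 to 26.4 and 17.2 to 22.6), of 4 B cell markers 2 (14.9 to 18.3 and 11.8 to 15.3) and of 7 mast cell markers 3 (20.4 to 37.8 and 11.4 to 23.9). Among 7 neutrophil markers 2 rose and 1 fell, and among 5 platelet markers 1 rose and 1 fell. Of 6 adipocyte markers 1 rose (71.4 to 73.7 on the high-fat diet and 59.5 to 73.4 on chow), of 6 fibroblast and progenitor markers 2, and of 6 endothelial markers none passed. With chow arrays 1 and 2 left out all 6 endothelial markers fell, by 0.72 for Tie1 to 1.78 for Kdr. In that fit Mertk of the macrophage list (-0.62), Zbtb46 of the dendritic cell list (-1.75) and Pparg of the adipocyte list (-0.97) also fell. It called 19.8% of all genes lower. The dendritic cell marker Ccr7 was dim, with a rise of 3.12 but of 0.61 on the log2(value + 16) scale. Of 10 epididymis and testis markers 7 fell (31.5 to 49.9 on the high-fat diet and 70.8 to 117.4 on chow). No marker was at the floor on all arrays. The 5' to 3' ratio of the actin control, a measure of RNA integrity, was 0.557 to 0.643 on the high-fat diet and 0.272 to 0.456 on chow. The part of these differences in the integrin results was not tested.

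**Figure D5:**
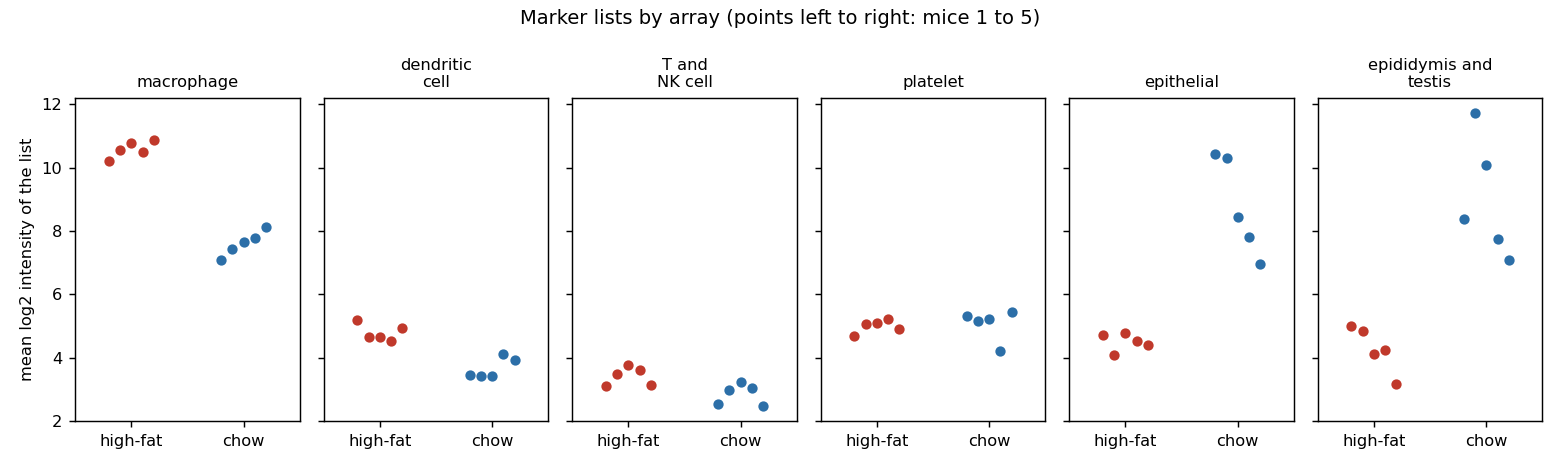
Mean log2 intensity of 6 marker lists (vertical axis) in the 5 high-fat and the 5 chow arrays; each point is a mouse. Macrophage and dendritic cell lists are higher in all high-fat arrays, epithelial and epididymis and testis lists are higher in all chow arrays, and the platelet and the T and NK cell lists overlap.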

How the data were processed

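Epididymal fat of 10 mice, 5 per diet, was measured on 10 arrays. The authors deposited 1 linear intensity per probe set and array; the summary algorithm and scaling of these values are stated in none of the sources used, and array medians ran from 17.9 to 27.4. Groups and replicate numbers come from the sample titles. Values below the 5th percentile (0.658) were set to it, then all were log2 transformed and, since array medians then differed by 0.613 (limit 0.5), quantile normalized. No detection calls were used. Tests left out 64 control probe sets; 34945 probe sets had 1 symbol, and each gene was read by its brightest. Of 167 list entries 152 were on the array.

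limma 3.58.1 in R 4.3.3 (lmFit, eBayes with a mean trend, Benjamini-Hochberg over all 18193 genes, or 45037 probe sets, at 0.05) gave the changes and adjusted p-values; dimers used exact permutation tests. The gene fit was tested on simulated data with the same spread in both groups and changes only in genes above the median level. That simulation did not cover the larger spread on chow (median SD 0.57, against 0.27 on the high-fat diet, over all genes) or changes of dimmer genes. Precision is limited by the number of arrays. Named genes were the members and up to 4 genes a list, taken by size of change among those that passed. Also named were the 2 genes most like each member and genes a sentence turns on. Itga9, Emilin1, Ccn2, Skap2, Tln1, Rap1b, Fermt2, Icam1, Icam2, Vcam1, Madcam1, Jam2, Pecam1, Src and Ilk were named after their values were seen. So were the markers Tie1, Kdr, Mertk, Zbtb46, Pparg and Ccr7. Members and lists were chosen with earlier results of these data known. Alternatives were other scalings, floors, priors, array weights, filters, probe set choices, the replicate number as a block, and arrays left out.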

Additional observations from a re-analysis of the deposited data

Results flagged for a closer look

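Of the integrin values, 4 lay apart from the other 4 mice of their group by Dixon's criterion, among 68 groups of 5 values examined; chance alone flags about 1 group in 20. High-fat mouse 2 was low in the brightest Itgb3 probe set (1.31, the nearest other value being 4.78) and, for that reason, high in Itgav minus Itgb3 (9.13, the nearest 5.61). High-fat mouse 4 was low in 1 dim Itga4 probe set (3.79, the nearest 4.46) and high in 1 Itgav probe set near the floor (2.28, the nearest -0.182).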

How the results depend on the processing

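Under all 21 alternatives to the gene fit no integrin gene was called lower, and Itgb2, Itgax, Itga4 and Itgb5 were called higher in each; Itgam and Itgb7 were called higher in the 20 that tested them. The number of the 10 genes called higher ran from 7 to 9 with each array left out in turn, where 1858 to 2744 of all 18193 genes were higher. It was 7 with probe sets of suffix a, s or x left out (2012 genes higher). It was 5 of 5 where only genes with a mean above the median were tested, which removed the other 5. That fit called 1694 genes higher and 1753 lower. Its filter used the mean over both diets. Itgax and Itga4 passed it through their high-fat arrays: their chow means, 5.27 and 5.49, lay below the mean of Itgal over all arrays (5.50), and Itgal was removed. Itgal lost its call only with the mean of its probe sets. Itga5 lost it in 10 of 20 alternatives and Itgav in 11 of 21, with ranges of 0.26 to 1.62 and 0.21 to 0.98. The number of probe sets called higher ran from 11 to 16 with each array left out. Shares over all probe sets were counted only for the main fit. Of other integrin subunits, 1 rose with array weights, with the filter on dim genes, with the replicate block and without chow arrays 1 and 2, 1 to 2 with each array left out, and 0 of 12 with suffixed probe sets left out (1 by limma at an unadjusted p under 0.05); 1 fell with the filter. Of the dimers, 2 to 3 passed with each array left out and 0 without chow arrays 1 and 2 (2 at an unadjusted p under 0.05 by the exact permutation test), where few arrangements are left. The uncalled shifts of Itgam minus Itgb2 and Itgax minus Itgb2 changed sign under 1 of 17 alternatives each and that of Itga4 minus Itgb7 under 2. Over all genes, 4420 were higher and 1440 lower with arrays centred on their medians and 1491 lower for the values as deposited, so that 75.4% and 64.8% of calls were higher, against 49.6% after quantile normalization; 3596 were lower without chow arrays 1 and 2. The cause of these changes was not tested. The replicate numbers gave no sign of pairing (correlations of -0.0201 to 0.00561 between same-numbered arrays). With them as a block 8 of 10 integrin genes and 11 of 26 probe sets were higher, Itgav losing its call (limma adjusted p = 0.116). That gene fit called 1898 of all 18193 genes higher and 1864 lower. The dimer test was not run with the block, since its smallest p would be 0.0625. Dim probe sets, with Itgam on chow the plainest case, limit the size of a change: without detection calls the lowest levels say nothing of presence.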
